A study of Mus musculus with 4 samples.

Results

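The genes described here are 34 subunits and enzymes of the BAF and CHD families of chromatin remodelers, taken by their symbols from the 32285 genes counted in each library. All 34 symbols had a row in every library. The list holds 25 subunits of BAF complexes and the 9 CHD enzymes. The rule takes genes by name and family and uses no measured value, although the list was drawn up with earlier results of these data known.

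RNA was measured in single cells of mouse embryos at embryonic day 9.5, from the pharyngeal region and the heart. Cre was knocked into the Tbx1 locus, so that GFP and the Kmt2d deletion follow the Tbx1 lineage and every embryo carried 1 disrupted copy of Tbx1. The conditional heterozygotes (cHet) were Tbx1Cre/+; Kmt2d F/+; GFP F/+, and the conditional knockouts (cKO) were Tbx1Cre/+; Kmt2d F/F; GFP F/+, both labelled as outbred Swiss Webster, while the methods describe mice backcrossed to Swiss Webster and kept on a mixed background with C57BL/6. GFP-positive living cells were sorted from pooled embryos, so a library is a pool and not an animal. Each genotype has 2 libraries. Replicate 1 held 4 embryos in each pool and used the Next GEM 3′ kit, and replicate 2 held 3 embryos in each pool and used the GEM-X 3′ kit. The paper's somite ranges began lower in cHet than in cKO in both replicates, and in replicate 1 the cHet range also reached higher. The part of stage in the genotype comparison was not tested. Kmt2d is a histone H3 lysine 4 methyltransferase that acts at enhancers, and the comparison of the genotypes asks what its loss changes in these cells. No group was wild type, so all values are from embryos heterozygous for Tbx1 with at least 1 Kmt2d copy deleted in GFP-positive cells.

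Chromatin remodelers use ATP to slide, eject or exchange nucleosomes. BAF complexes, the mammalian SWI/SNF remodelers, are built around either of the ATPases Smarca4 (BRG1) or Smarca2 (BRM), and open chromatin at enhancers and promoters. Many of their other places are filled by 1 of several paralogs, and exchanging the paralog is a known way by which a cell type obtains its own form of the complex, with Smarcd3 (BAF60c) and Dpf3 (BAF45c) known from heart and muscle and Actl6b (BAF53b) from postmitotic neurons. CHD enzymes carry chromodomains: Chd3, Chd4 and Chd5 are the ATPases of the NuRD complex, and Chd7 is the gene mutated in CHARGE syndrome, whose heart and pharyngeal features overlap with those of TBX1 haploinsufficiency.

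The 4 libraries held 9307 to 37093 barcodes and 179454146 to 234726019 unique molecular identifiers (UMIs), and 5869 to 11938 cells per library were kept. The cHet Rep1 library stood apart, with 37093 barcodes and 60.04% of its UMIs in kept cells, against 86.1 to 91.6% in the others. Ambient RNA was not removed from the counts used here, whereas the paper removed it with the program SoupX. The part of ambient RNA in the values was not tested. Median depth was 17240.5 to 22972 UMIs per kept cell. The 2 libraries of replicate 1 shared 12 barcodes, those of replicate 2 shared 41, and libraries of different replicates shared 0. Clusters were named from marker genes only, so each type below is a type-like population, and 3937 kept cells had no name. Each of the 13 types held at least 4 of its own markers at 2-fold or more over the median of the types. The anterior second heart field (aSHF) and the multilineage progenitors (MLPs) were the least set apart, with 3 of 10 and 3 of 9 markers highest in them. Values are given with replicate 1 first and, within a replicate, cHet before cKO. In this order Kmt2d had 19.1, 17.3, 21.3 and 19.0 CPM (UMIs scaled to a common library total, log2 fold change -0.16 ± 0.07 SE, adjusted p = 0.956), where 3′ UMIs do not show whether the floxed exons were removed. Tbx1 had 85.5, 85.1, 58.8 and 54.4 CPM.

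Dpf3 and Smarcd3 varied most across the cell types. The former is a plant homeodomain finger subunit that reads modified histones, and the latter a core subunit that links BAF to cardiac transcription factors. Both were highest in cardiac muscle and next highest in the aSHF, and their lowest median was in mature endothelium. That type was lowest in 3 of 4 libraries for Smarcd3 but in 2 of 4 for Dpf3, where it overlapped endoderm. The Dpf3 gene lies at chr12:83213745-83487716 on the minus strand, and Smarcd3 at chr5:24590818-24624411 on the minus strand (GRCm38). Their promoters are shown because no other members changed as much between types. The sequences are the 250 bases before the RefSeq start site in the sense of the gene (RefSeq, GRCm38.p6, minus strand, chr12:83487737-83487986 for Dpf3 and chr5:24602003-24602252 for Smarcd3, the latter inside the outer bounds of the gene). Capitals mark matches on either strand to the CCAAT box or to the NKX-type motif CACTT:

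Dpf3: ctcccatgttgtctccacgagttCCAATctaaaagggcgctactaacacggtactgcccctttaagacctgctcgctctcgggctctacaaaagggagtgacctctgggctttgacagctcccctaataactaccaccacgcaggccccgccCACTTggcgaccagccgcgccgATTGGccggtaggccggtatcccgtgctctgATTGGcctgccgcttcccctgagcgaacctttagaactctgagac

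Smarcd3: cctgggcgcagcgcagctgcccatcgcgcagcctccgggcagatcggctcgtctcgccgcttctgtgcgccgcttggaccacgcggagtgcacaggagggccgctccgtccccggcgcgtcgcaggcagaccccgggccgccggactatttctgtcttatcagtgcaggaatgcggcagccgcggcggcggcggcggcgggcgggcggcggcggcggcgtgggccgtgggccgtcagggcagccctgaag

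The motifs searched, on both strands, were the GATA-type AGATAA, the NKX-type CACTT, the CCAAT box and the TATA-type TATAA, and no matches overlapped in these windows. The Dpf3 window held CCAAT 3 times and CACTT 1 time, and the Smarcd3 window held none of them. Only these exact strings were counted, so other forms of the same motif types can be present in either window. Among 32851 promoter windows of the same length, 33.8% held the CCAAT box. CACTT was in 40.7% of them, TATAA in 22.8% and AGATAA in 9.99%. Both windows were rich in CpG, with 16 CpG in Dpf3 and 38 in Smarcd3. The median was 22 over the 26 members that had a RefSeq window and 6 over all windows.

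In cardiac muscle, Dpf3 had 195, 169, 233 and 230 CPM, as a share of the UMIs of that type. In the aSHF it had 91.1, 73.8, 154 and 133 CPM, and in the posterior second heart field (pSHF) 25.3, 31.9, 27.4 and 38.2 CPM. Mature endothelium had 2.66, 3.24, 4.48 and 4.26 CPM. All 4 libraries therefore gave the order cardiac muscle, aSHF, pSHF, mature endothelium, and the ranges of these types did not overlap. With 5 CPM added to both, cardiac muscle was 24.8-fold above the lowest type (21.1 to 26.1 over the libraries). Outside the heart lineages the highest median was 20.9 CPM in ectoderm. Cardiac muscle was the smallest named type over the 4 libraries together, though not in each, with 75, 26, 123 and 137 cells. Its own markers made up 3.22 to 5.34% of its UMIs against 0.00078 to 0.00159% in mature endothelium. In the aSHF those cardiac muscle markers made up 0.133, 0.0901, 0.477 and 0.392%. Their part in the Dpf3 and Smarcd3 values of the aSHF was not tested.

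Smarcd3 had the same order of types. It had 89.4, 84.6, 97.8 and 94.0 CPM in cardiac muscle, 28.4, 28.8, 33.7 and 34.9 CPM in the aSHF, and 23.0, 22.7, 19.9 and 23.3 CPM in the pSHF. Mature endothelium had 0.532, 0.735, 0.353 and 0.731 CPM. Cardiac muscle was 17.2-fold above it on the same scale, and its lowest library lay above the highest of any other type. Cells of a type were grouped by clustering of these same libraries, although the 34 genes were left out of it, so levels between types are described here without a test.

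**Figure D1:**
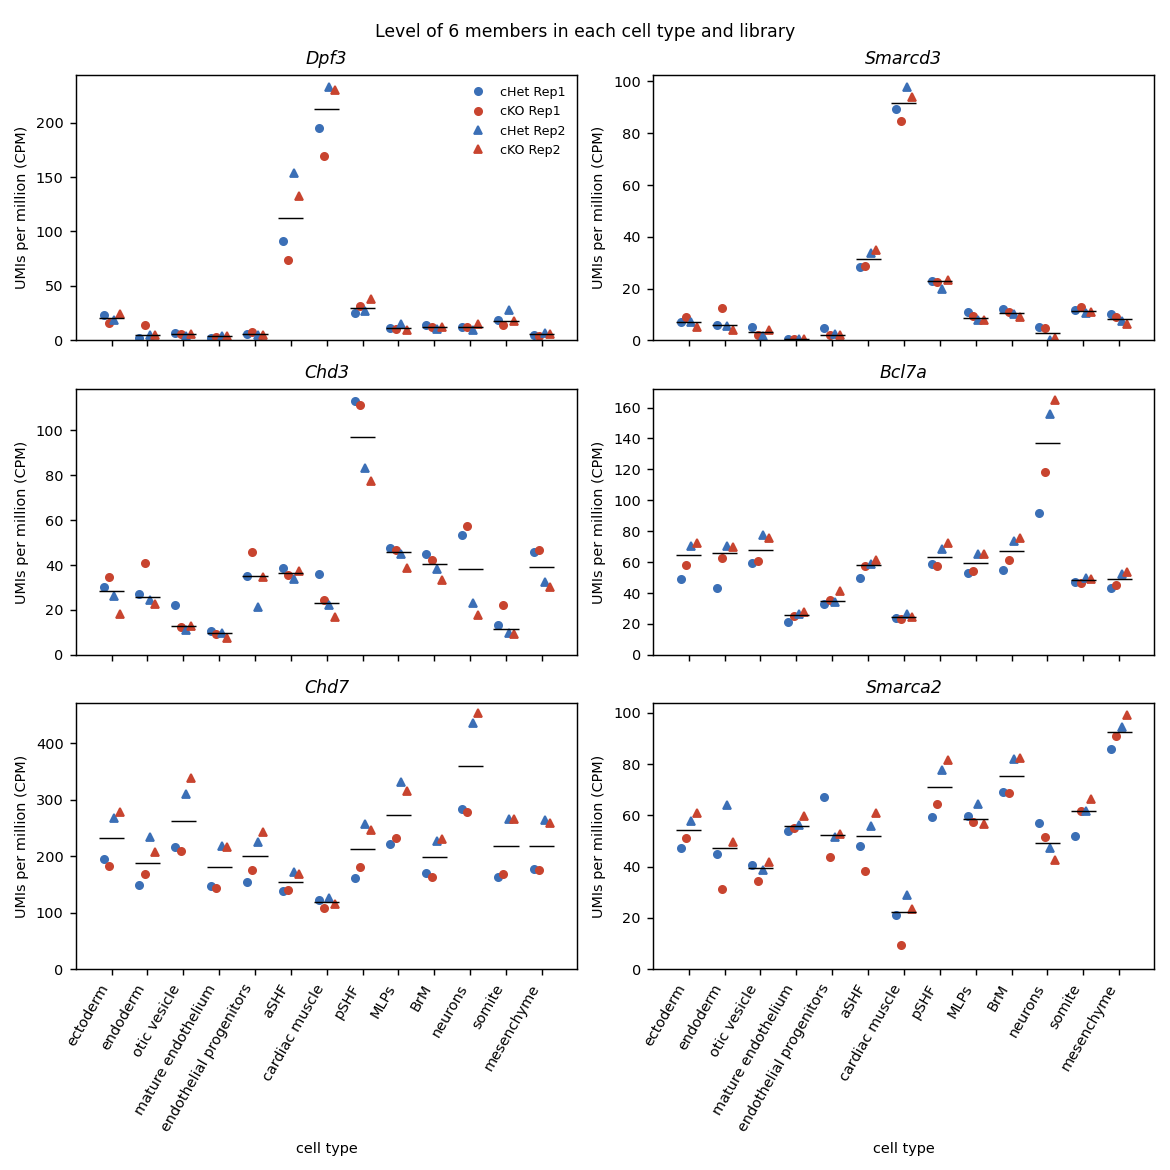
Level of 6 members (vertical, CPM on a linear scale) in each of the 13 cell types (horizontal), 1 point per library with colour for genotype and shape for replicate, and a line at the median of the 4 libraries. Dpf3 and Smarcd3 sit highest in cardiac muscle, Chd3 in the pSHF and Bcl7a in neurons, in all 4 libraries.

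Chd3, an ATPase of NuRD, a complex that joins remodeling to histone deacetylation, came next. It had 113, 111, 83.1 and 77.5 CPM in the pSHF, against 47.7, 46.8, 45.0 and 38.7 CPM in the MLPs, the next highest type. Mature endothelium had 10.8, 9.12, 9.89 and 7.55 CPM. The pSHF range did not overlap that of the MLPs, and the ratio to the lowest type was 7.05. The pSHF also differed from the aSHF, where the median was 36.3 CPM.

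Neurons led for most of the other members that varied. Bcl7a, a small accessory subunit, had 91.9, 118, 156 and 165 CPM in neurons and 23.7, 23.2, 26.4 and 24.7 CPM in cardiac muscle, a ratio of 4.86. Smarcd2, the Smarcd paralog known for its part in granulocyte development, had 32.4, 33.8, 77.5 and 66.3 CPM in neurons and 7.91, 6.82, 9.94 and 8.48 CPM in cardiac muscle, a ratio of 4.17. The neuron values of Smarcd2, as those of Bcl7a, Chd7 and Arid1b given here, lay higher in replicate 2 than in replicate 1 in both genotypes. The neuron class itself differed in the same way. Its 10 neuron markers summed to 2458, 3317, 7217 and 7363 CPM, and the 9 mesenchyme markers in it to 632, 408, 208 and 170 CPM. The part of this difference in the neuron values was not tested. Chd7 had 283, 279, 437 and 453 CPM in neurons and 122, 109, 126 and 115 CPM in cardiac muscle, a ratio of 2.95. Arid1b, which takes the place of Arid1a in part of the canonical BAF complexes, had 157, 149, 185 and 192 CPM in neurons and 56.6, 42.3, 50.9 and 50.2 CPM in cardiac muscle, a ratio of 3.17. Smarcd1, the most widely used Smarcd, had 117, 135, 76.2 and 64.4 CPM in neurons and 40.7, 34.1, 20.2 and 19.4 CPM in cardiac muscle, a ratio of 3.16. Within each library, neurons were the highest type in all 4 for Bcl7a, Smarcd2 and Chd7, in 3 for Arid1b and in 2 for Smarcd1. Across the replicates the ranges of the first and second type overlapped for all of these but Bcl7a.

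For the remaining 4 of the 12 members that varied most, the highest median was in a mesoderm type. Smarca2 had 85.9, 91.0, 94.4 and 99.2 CPM in mesenchyme and 21.3, 9.55, 28.9 and 23.7 CPM in cardiac muscle, a ratio of 3.55, where the lowest of these values rested on 7 UMIs. Mesenchyme did not overlap the branchiomeric muscle progenitors (BrM) that came second. Smarcc1, the scaffold around which the core is assembled, had 363, 399.8, 697 and 692 CPM in the MLPs and 198, 187, 274 and 248 CPM in cardiac muscle, a ratio of 2.42. Actl6a, the actin-like subunit of dividing cells, had 175, 186, 276 and 253 CPM in the pSHF and 79.7, 88.7, 124 and 101 CPM in cardiac muscle, a ratio of 2.26. Chd6, a CHD enzyme of the Chd7 subfamily, had 144, 149, 212 and 217 CPM in the MLPs and 70.5, 49.1, 86.6 and 91.5 CPM in cardiac muscle, a ratio of 2.22. For Smarcc1, Actl6a and Chd6 the highest type overlapped the second, and Chd6 was higher in ectoderm than in the MLPs in 3 of 4 libraries.

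The range between types was close to that of other expressed genes. Over the 30 members whose median over the 13 types was at least 10 CPM, which leaves out Smarcd3, Dpf1, Actl6b and Chd5, the median ratio of highest to lowest type was 1.98, against 1.84 over 8565 genes at the same level. A ratio of 2 or more was reached by 15 members (50%) and by 41.9% of all genes, a ratio of 3 or more by 7 members (23.3%) and 21.5%, and a ratio of 5 or more by 2 members (6.67%) and 12.1%. When genes were kept for reaching 10 CPM in their highest type, a choice made after seeing the data that brings in Smarcd3, the medians were 2.07 over 31 members and 2.05 over 11187 genes. A ratio of 3 or more was then reached by 8 members (25.8%) and 32.9% of genes, and a ratio of 5 or more by 3 members (9.68%) and 19.04%. Over all 34 members, 17 had a ratio of 2 or more and 17 a lower one. Small ranges were also seen for abundant members. Chd4, the main NuRD ATPase, had a ratio of 1.44, Pbrm1, the bromodomain scaffold of PBAF, 1.47, and Brd7, another PBAF subunit, 1.40.

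By role, the median ratio was 2.71 for the 2 ATPases, 2.24 for 6 core subunits (2.42 for all 7, with Smarcd3), 2.08 for 5 accessory subunits, 2.44 for 4 canonical BAF subunits, 1.53 for the 4 PBAF subunits and 1.34 for Brd9 of the non-canonical complex. CHD enzymes had 1.87 in subfamily I, 4.24 in subfamily II through Chd3, and 2.20 in subfamily III. Among remodelers outside the list, 12 NuRD partners had a median ratio of 1.97, 13 ISWI genes 1.86, 29 genes of INO80 and the SRCAP and TIP60 complexes 1.67, 12 other SNF2 genes 1.78, and 3 of 6 further BAF subunits 1.91. Proliferation genes had 2.05 for S phase and 2.74 for G2/M phase, and 3 measured immediate early genes 6.07.

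**Figure D2:**
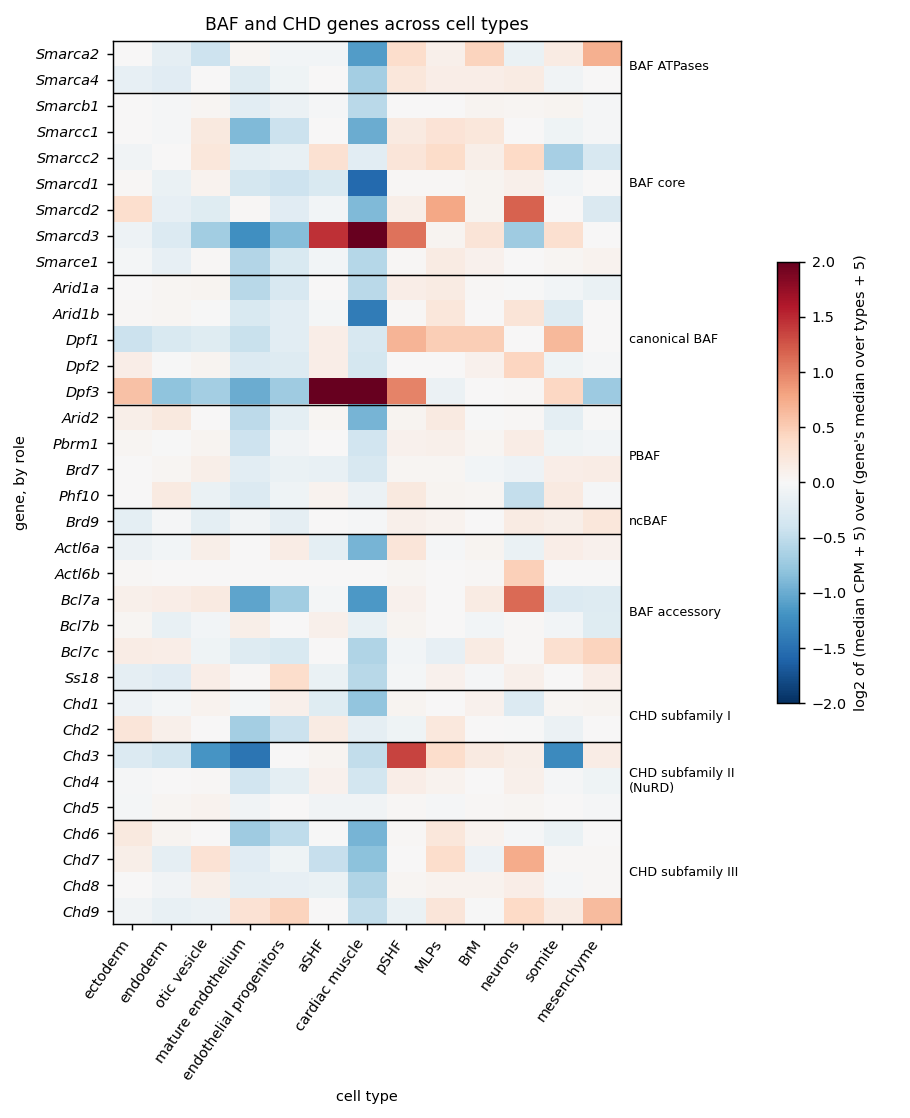
Level of each member (rows, ordered by role) in each of the 13 cell types (columns), as the log2 ratio of its median over 4 libraries to the median of the types (5 CPM added to both), with colours that stop at 2 in either direction. The cardiac muscle column is low for most members, and Dpf3 and Smarcd3 are its high entries.

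Cardiac muscle had the lowest level for most members apart from Dpf3 and Smarcd3. It was the lowest type for 19 of the 30 members with a median over the types of at least 10 CPM (63.3%), against 39.1% of all genes, and for 19 of 31 (61.3%) against 33.6% with genes that reached that level in any type. Mature endothelium was lowest for 7 of the 30 (23.3%), against 17.6% of all genes. Other remodelers were often lowest in cardiac muscle as well, with 11 of 12 other SNF2 genes, 9 of 13 ISWI genes, 8 of 12 NuRD partners and 17 of 29 genes of INO80 and the SRCAP and TIP60 complexes, as were 11 of 14 S-phase genes. The median member in cardiac muscle lay at -0.64 on the log2 scale relative to the median of the types (-0.43 to -0.71 over the libraries), and the median of all genes at -0.25. In mature endothelium the values were -0.29 and -0.08. The MLPs lay at the other end, at 0.13 for the members and 0.01 for all genes. Of the 14 G2/M genes, 14 were lowest in cardiac muscle too, and the share of the library taken by muscle transcripts was largest there, as given above. Their part in the low levels of the members was not tested.

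The paralog that led by its median changed between types for 5 of 10 paralog sets, although for CHD subfamily III the change was a near tie in 1 type. A share here is a paralog's percent of the UMIs of its set in one type, counted at the 3′ ends and not per length, so it is read for change between types. In the Smarcd set, Smarcd1 led by its median in 12 of 13 types, up to 82.3% in otic vesicle. In cardiac muscle Smarcd3 held 64.8, 67.4, 76.5 and 77.1%, and Smarcd1 held a median of 21.6%. In the aSHF the Smarcd3 share was 20.8, 19.4, 33.6 and 32.3%, higher in both libraries of replicate 2. It was a median of 16.1% in the pSHF and 0.61% in mature endothelium. Smarcd2 had its largest median share, 35.6%, in neurons, a value that lies between replicates, since the libraries held 21.0, 19.5, 50.3 and 50.3%. It was slightly above Smarcd1 in both libraries of replicate 2 and well below it in both of replicate 1.

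In the Dpf set, Dpf3 led in cardiac muscle with 86.7, 86.7, 85.3 and 85.3% and in the aSHF with 69.4, 61.3, 72.3 and 70.6%. The pSHF came next by its median, with 38.3, 41.4, 31.8 and 39.6%, and there Dpf2, the widely used paralog, led with a median of 51.0%. Endoderm had the smallest Dpf3 share by its median, 8.80%, from 6.35, 28.4, 9.62 and 7.97% in the libraries, and a median Dpf2 share of 87.8%. Dpf1, the paralog known from neurons, did not exceed a median of 11.9%, in somite, and held 4.5% in neurons.

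**Figure D3:**
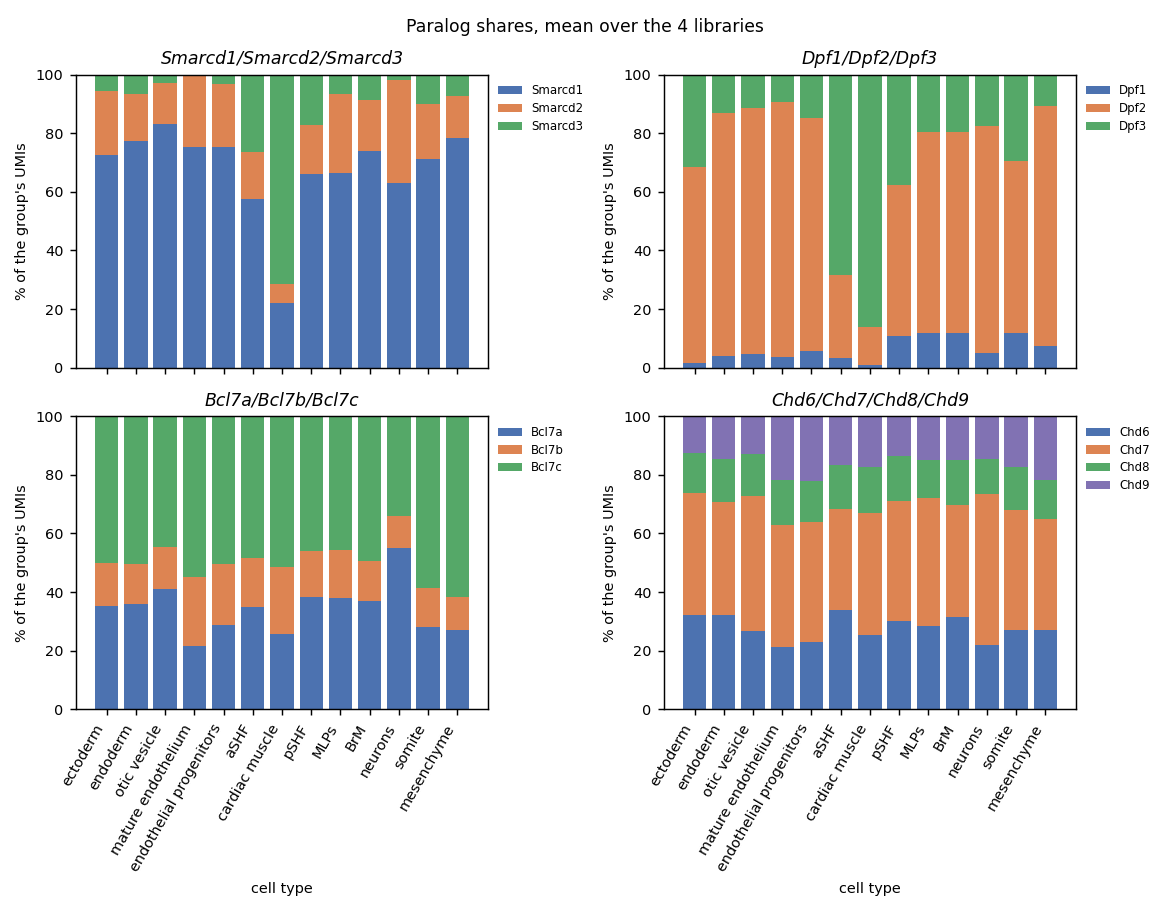
Share of each paralog (vertical, percent of the UMIs of its set, stacked, mean over 4 libraries) by cell type (horizontal) for 4 sets. Smarcd3 and Dpf3 take the largest share in cardiac muscle, and Bcl7a takes it in neurons.

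The other sets changed less. Bcl7a held 46.4, 52.8, 58.6 and 62.7% of the Bcl7 set in neurons, while Bcl7c led by its median in the 12 other types, up to 61.7% in mesenchyme. Bcl7b stayed between 11.1% in neurons and 23.9% in cardiac muscle. Chd1, which binds methylated histone H3 lysine 4, held 66.1% of the Chd1 and Chd2 set in mature endothelium and 45.1% in cardiac muscle. Chd2 led by its median in ectoderm, aSHF and cardiac muscle, but the libraries differed on the leader in 4 types. Chd7 led subfamily III in 12 types, with 51.3% in neurons. In the aSHF Chd6 and Chd7 were even, at 34.3 and 34.2%, with libraries on both sides, and Chd7 led in every type when each cell was thinned to 5000 UMIs. Chd8, which acts on β-catenin and p53 targets, stayed between 11.7 and 16.0%, and Chd9 between 12.6% in ectoderm and 22.2% in mature endothelium.

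The leader by the median was the same in all types for the other 5 sets. Smarca4 held 61.2% of ATPase UMIs in mesenchyme and 80.1% in cardiac muscle. Smarcc1 held 81.8% of its pair in cardiac muscle and 92.6% in somite. Chd4 held 81.1% of its set in the pSHF, where Chd3 was highest, and 96.9% in mature endothelium. Arid1b held 29.6% of the Arid1 pair in cardiac muscle. In neurons it held 51.6, 50.6, 45.8 and 48.2%, above Arid1a in both libraries of replicate 1 and below it in both of replicate 2, and a median of 50.3% after thinning. Actl6b held a median of 1.19% of its pair in neurons, from 6, 9, 7 and 14 UMIs, and less in all other types. With Chd5, the neuronal NuRD ATPase, which had a median of at most 0.50 CPM in any type, it was the least counted of the 34.

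Between the genotypes, the 34 genes differed little. Over all kept cells none of the 34 passed the test of cKO against cHet (edgeR quasi-likelihood test with replicate as a block, Benjamini-Hochberg adjustment over all genes, 2 libraries per genotype), where 0% of 20126 genes were called, 0 members had an unadjusted p under 0.05 and DESeq2 called 0 members. Their median log2 fold change was 0.02. The median size of the change was 0.0497 over the members and 0.0818 over all genes, and the 95% interval lay within 0.5 of 0 on the log2 scale for 31 of 34. The members whose interval was wider were Dpf3, Actl6b and Chd5. Of the 34, 9 were higher and 8 lower in both replicates, where 29.7% of all genes were higher and 21.0% lower in both. The sign differed between replicates for the other members.

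Of the members that moved the same way in both replicates over all cells, the 5 highest and 5 lowest are given, in CPM scaled by TMM (trimmed mean of M values), and none passed the test. Brd9, of the non-canonical complex, had 45.2, 49.8, 27.1 and 28.8 CPM (log2 fold change 0.11 ± 0.06 SE). Smarca2 had 73.0, 83.7, 70.2 and 71.5 CPM (0.11 ± 0.06), where mesenchyme, its highest type, made up 40.9, 55.6, 44.2 and 43.6% of kept cells. Bcl7a had 51.6, 56.5, 51.9 and 54.3 CPM (0.10 ± 0.06). Both cKO libraries lay above both cHet libraries for Bcl7a, but not for Brd9 or Smarca2. Chd9, a subfamily III enzyme, had 92.2, 102, 107 and 110 CPM (0.08 ± 0.06), and Chd1 had 161, 173, 194 and 196 CPM (0.06 ± 0.05).

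On the lower side, Dpf3 had 21.8, 15.6, 19.8 and 19.7 CPM (-0.24 ± 0.12), and nearly all of the difference was in replicate 1. Smarcd3 had 13.7, 12.1, 9.61 and 9.04 CPM (-0.13 ± 0.09). The share of heart cells in the libraries is given beside these values. The aSHF and cardiac muscle made up 6.01, 2.51, 4.55 and 4.31% of kept cells, and held 33.4, 16.8, 39.1 and 33.3% of all Dpf3 UMIs. In all other cells together Dpf3 had 14.1, 11.8, 14.2 and 15.2 CPM, unscaled, lower in cKO in replicate 1 and higher in replicate 2. Smarcd3 there had 10.6, 9.94, 8.53 and 8.02 CPM, lower in cKO in both replicates. Dpf1 had 4.83, 4.24, 5.24 and 4.42 CPM (-0.22 ± 0.12), Phf10, a PBAF subunit with plant homeodomain fingers, 46.1, 46.0, 103 and 90.0 CPM (-0.10 ± 0.07), and Chd5 0.168, 0.154, 0.246 and 0.197 CPM (-0.24 ± 0.29).

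Within the 8 cell types tested, 257 tests of members gave 2 calls, both in the pSHF, and 11 tests (4.28%) had an unadjusted p under 0.05, against 4.51 to 10.2% of all genes by type. A fold change past 0.25 on the log2 scale was seen in 9 tests and one past 0.5 in 0. In epithelium 0 of 32 members were called, where 0% of 14201 genes were. In endothelium 0 of 32 were called, against 0.0230% of genes, in the aSHF with cardiac muscle 0 of 32 against 0.0520%, and in the MLPs 0 of 32 against 0.293%. In BrM 0 of 32 members were called against 1.24% of genes, in neurons 0 of 32 against 0.0654%, and in mesenchyme 0 of 33 against 0.988%. The number of members with an unadjusted p under 0.05 in these 7 types was 1, 0, 1, 1, 1, 1 and 3 in that order, and DESeq2 called 0 members in each. The share of all genes that DESeq2 called is not given here, for all cells or for any type. The median over the members lay between -0.02 and 0.02 in all 8 types.

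**Figure D4:**
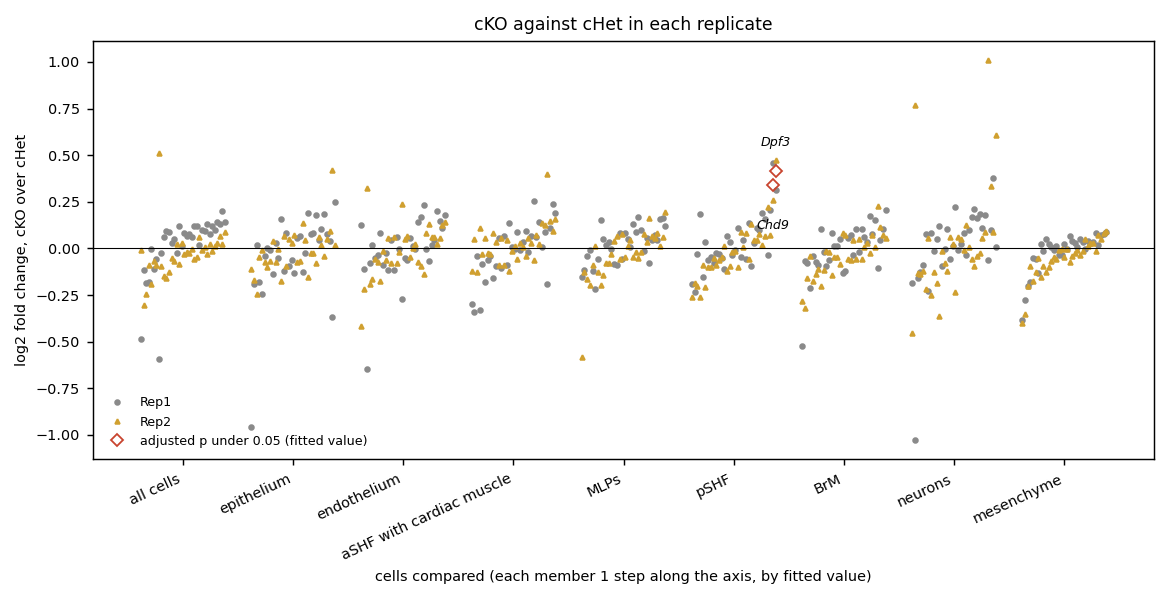
Log2 fold change of cKO over cHet (vertical) of each member in replicate 1 (circles) and replicate 2 (triangles), for the 9 sets of cells (horizontal, members ordered by fitted fold change within each), with diamonds at the fitted value of called members. Most points lie close to 0, and Dpf3 (0.31 and 0.47) and Chd9 (0.46 and 0.26) stand out in the pSHF.

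In the pSHF, the progenitors of the inflow tract and atria, Dpf3 and Chd9 rose in cKO, 2 of 32 members tested, where 1.12% of 13260 genes were called. Dpf3 had 28.7, 35.7, 24.4 and 34.03 CPM, scaled by TMM, from 167, 157, 352 and 444 UMIs. Its log2 fold change was 0.31 in replicate 1 and 0.47 in replicate 2, and 0.42 ± 0.12 (SE) in the fit (adjusted p = 0.0367). Chd9 had 57.8, 79.3, 63.8 and 76.4 CPM, from 336, 349, 919 and 997 UMIs, with 0.46 and 0.26 in the replicates and 0.34 ± 0.09 in the fit (adjusted p = 0.0106). Both cKO libraries lay above both cHet libraries for both genes on this scale. Without TMM scaling, Chd9 had 70.9 CPM in cKO Rep1 and 71.6 in cHet Rep2, so the groups then overlapped. The test used sums over cells, and a sum alone does not separate a higher level per cell from a larger share of cells that express the gene. DESeq2 called 0 members in the pSHF, and so did the edgeR fit without the block on all 4 libraries. The share of all genes called in these fits is not given here, so their 0 calls cannot be set against it.

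Cardiac muscle genes also rose in cKO in the pSHF sums. Of the 8 cardiac muscle markers 7 were tested, and 5 rose in cKO: Tnnt2, Myh6, Actc1, Ttn and Myl7, all sarcomere proteins of the heart. The median log2 fold change of the 7 was 0.90, and the 8 summed to 339, 626, 456 and 683 CPM. By replicate that median was 1.14 in replicate 1 and 0.54 in replicate 2, while the Dpf3 change was larger in replicate 2. Of the 8 pSHF markers 3 rose too, Tbx5, Wnt2 and Gata4, while the 9 mesenchyme markers had a median of 0.01 and 0 calls. The 9 immediate early genes tested had a median of -0.17 and 0 calls. In an alternative chosen after seeing the data, pSHF cells with at least 20 UMIs of the 8 cardiac markers were left out, which were 18 of 297, 15 of 198, 26 of 571 and 42 of 643 cells. Dpf3 then had 18.4, 18.9, 20.3 and 26.9 CPM, unscaled, with a log2 fold change of 0.27 (adjusted p = 0.991). Chd9 had 50.0, 71.8, 71.8 and 85.6 CPM, with a log2 fold change of 0.35 (adjusted p = 0.137). Without these cells neither gene passed the test, and 0 members were called. The share of all genes called in this smaller set is not given here. Against the fit on all pSHF cells, the fold change of Chd9 stayed about the same (0.34 there), while that of Dpf3 was smaller (0.42 there).

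Other members came under an unadjusted p of 0.05 without passing the adjustment, and are given as values. Phf10 was lower in cKO in both replicates in 6 of 8 types and higher in both in 0. By type, 24.0 to 26.5% of all genes were lower in both. The types come from the same 4 libraries, so they are not separate observations, and over all cells nearly all of the Phf10 difference lay in replicate 2. The log2 fold change of Phf10 was -0.24 ± 0.08 in the pSHF, from 55.5, 48.6, 122 and 102 CPM (adjusted p = 0.231), -0.18 in epithelium, -0.34 in neurons and -0.12 in mesenchyme. Smarcd2 had -0.37 ± 0.12 in BrM, from 18.8, 13.0, 25.6 and 21.1 CPM (adjusted p = 0.194). Dpf3 had -0.20 ± 0.08 in the aSHF with cardiac muscle, from 126, 103, 161 and 148 CPM (-0.23 in aSHF cells alone, an alternative chosen after seeing the data), and -0.41 ± 0.16 in the MLPs, from 13.1, 11.8, 13.1 and 8.73 CPM. Of the cardiac muscle markers tested, 7 of 8 were lower in the former (median -0.20) and 3 of 4 in the latter (median -0.45). In aSHF cells these markers made up 0.133, 0.0901, 0.477 and 0.392% of UMIs. Their part in the Dpf3 values was not tested. In mesenchyme, Smarcd3 had -0.20 ± 0.08 and Dpf1 -0.32 ± 0.12.

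Whether the genotype effect differed between the 8 types was tested in a single fit over the types. None of the 33 members tested passed (edgeR quasi-likelihood F test), against 0.204% of 15676 genes, and 2 had an unadjusted p under 0.05: Dpf3 (adjusted p = 0.301) and Smarcd2 (adjusted p = 0.746). When every gene with at least 1 count was kept, Dpf3 alone was called in the same test (adjusted p = 0.000278). Whether Dpf3 passed thus changed with this setting, and the cause was not tested. DESeq2 was not run for this question.

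Related complexes were as little changed. In each of the 9 comparisons, 0 of 12 NuRD partners, 0 of 13 ISWI genes, 0 of 29 INO80, SRCAP and TIP60 genes and 0 of 12 other SNF2 genes passed the edgeR test, with medians between -0.04 and 0.08. Among the 6 further BAF subunits, Bcl11a, a transcription factor found with BAF in neural and blood cells, rose in the pSHF (log2 fold change 0.39 ± 0.10 SE, adjusted p = 0.00971, from 41.4, 54.3, 37.0 and 48.7 CPM) and in mesenchyme (0.88 ± 0.17 SE, adjusted p = 0.0485, from 1.34, 2.25, 1.25 and 2.44 CPM). In the pSHF the cardiac muscle markers given above rose as well (median 0.90, 5 of 7 called). Without the cells rich in them the log2 fold change of Bcl11a was 0.43, against 0.39 with them. It then had an edgeR adjusted p of 0.0739, which does not pass. Neither call of Bcl11a held without the replicate block, with cells thinned or with DESeq2 (adjusted p = 0.99987 in the pSHF and 0.499 in mesenchyme), and the call in mesenchyme was also lost at Leiden resolution 1.2 (adjusted p = 0.0877). The log2 fold change was above 0 in all of these. Of the 9 neuron markers tested in mesenchyme, 2 were called higher, both at low counts, and 3 had a fold change below 0. Neurod1 (1.39) had 0.408, 0.986, 0.465 and 1.28 CPM, and Stmn2 (2.19) had 0.771, 1.76, 0.178 and 1.76 CPM. The neuron markers had a median log2 fold change of 0.68, and the list of 10 summed to 19.1, 19.8, 24.0 and 27.9 CPM. Their part in the rise of Bcl11a was not tested. The 14 S-phase and 14 G2/M genes had 0 calls in every comparison.

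The replicate, and with it the kit, moved the members far more than the genotype. Between replicate 2 and replicate 1 over all cells, 24 of 34 members were called, 16 higher and 8 lower, where 49.1% of 20126 genes were called. Phf10 was 1.06 ± 0.07 (SE) higher on the log2 scale in replicate 2, Smarcc2 0.56 ± 0.06 and Smarcc1 0.53 ± 0.05. Smarcd1 was lower in replicate 2, at -1.06 ± 0.06, as were Chd3 at -0.78 ± 0.08 and Brd9 at -0.76 ± 0.06, while Actl6b, at -1.23 ± 0.42, rested on 15 to 27 UMIs per library. The median size was 0.25 over the members and 0.37 over all genes. The 2 replicates differed in kit, pool, embryo number and the Cell Ranger version of the file headers together, which cannot be told apart. Smarcd1 was lower in replicate 2 and Smarcd2 higher, so the medians and means of their shares over the 4 libraries join replicates at unequal levels.

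**Figure D5:**
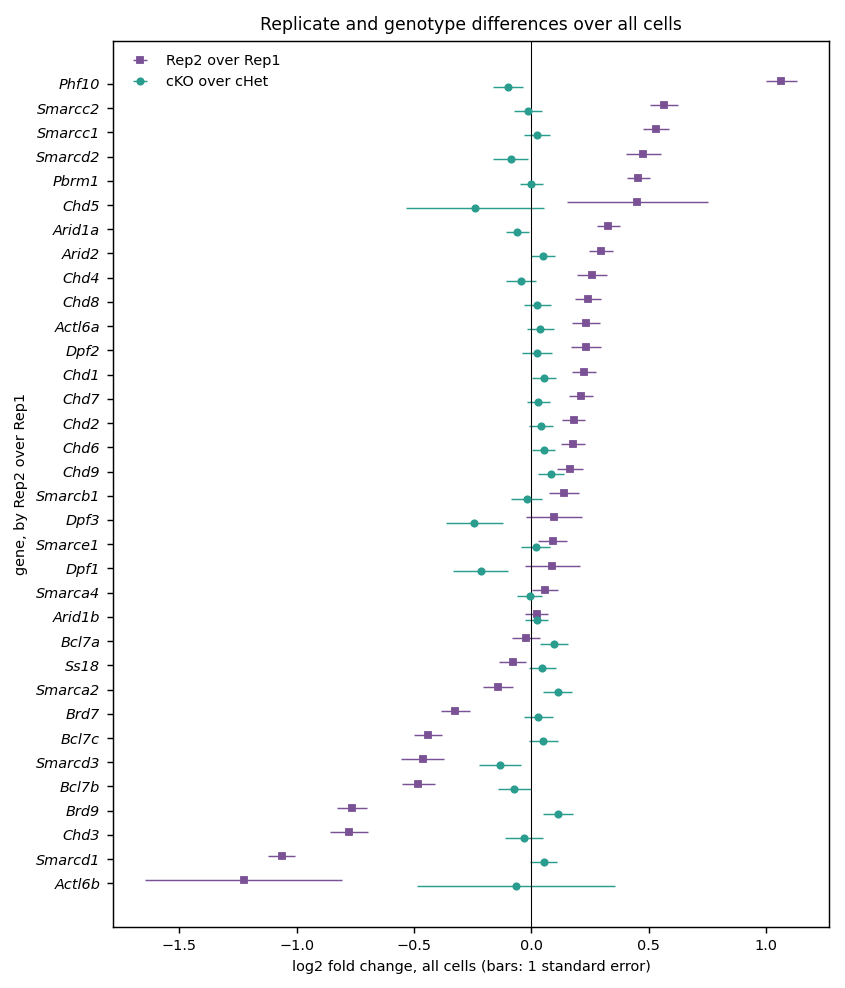
Log2 fold change over all cells (horizontal, bars of 1 SE) of each member (vertical), for replicate 2 over replicate 1 (squares) and for cKO over cHet (circles). Replicate changes run from -1.23 for Actl6b and -1.06 for Smarcd1 to 1.06 for Phf10, while genotype changes stay between -0.24 and 0.11.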

How the data were processed

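Single-cell 3′ RNA was measured in 4 libraries, 2 per genotype. The authors deposited a matrix of UMI counts per gene and barcode for each, made with Cell Ranger, for which the file headers give 7.0.1 in replicate 1 and 8.0.1 in replicate 2, and the submitters' processing notes 8.0.1 and mm10. Counts were not normalized, and whether intronic reads were counted is not given in the sources used here. Cells with at least 3000 genes, at most 10% mitochondrial and 5% globin UMIs were kept. Doublets were called by Scrublet score at the rate expected for the kit (4.03 to 5.78% of cells), since its own threshold marked 0.015 to 1.74%. Cells were clustered with scanpy 1.11.5 (2000 variable genes without the 34 described here, Leiden resolution 0.8, replicates aligned by a shift per soft cluster) and named from at least 3 markers of a list.

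UMIs were summed per library and type. Genotypes were compared with edgeR 4.0.16 (TMM, filterByExpr, quasi-likelihood test) with replicate as a blocking term, adjusting by Benjamini-Hochberg over all genes. DESeq2 1.42.0 was an alternative. The extraction protocols name another kit for each replicate number, so the number marks a shared batch. Deviations from the genotype means of same-numbered libraries correlated at 0.74 to 0.85. Libraries are pools of embryos and not animals. With the block, p-values rest on how far the genotype difference varies between the 2 replicates and on a dispersion shared across genes. In the pSHF the weight of a gene's own spread appeared small. There Actc1, with a larger rise in replicate 1, had an SE of 0.08 and an edgeR adjusted p of 4.3e-37, from 47.4, 153, 134 and 207 CPM. The p-values of Dpf3 and Chd9 there therefore do not measure how closely the 2 replicates agree. The test was checked on simulated counts. CPM in genotype comparisons is scaled by TMM, and CPM across types is not. Precision is set by the UMIs given, and intervals rest on these libraries only. Positions are from GENCODE on GRCm38 and promoters from RefSeq.

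The members, gene lists and tests were chosen with earlier results of these data known. Values in every library are given for members called between genotypes, for up to 5 members up and 5 down over all cells with the same sign in both replicates, for the 12 that varied most between types, for paralog sets whose leader changed (as shares, in the types that differ) and for Kmt2d and Tbx1. Alternatives were another scaling, no filter on low counts, no replicate block, thinning each cell to 5000 UMIs, another Leiden resolution, 1000 genes per cell, doublets kept, no mitochondrial limit, DESeq2 and leaving out libraries.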

Additional observations from a re-analysis of the deposited data

Results flagged for a closer look

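The Dpf3 fold change had opposite signs in different types, with the same sign in both replicates of each. It passed the test in the pSHF, though not once cells rich in cardiac muscle markers were left out, and in neither of the other types named here. Its log2 fold change of cKO over cHet was 0.42 in the pSHF and -0.20 in the aSHF with cardiac muscle, a difference of 0.61. Against the MLPs, where it was -0.41, the difference was 0.83. These pairs of types were picked because the signs differ, and the difference within each pair was not tested. The test over all 8 types together gave an adjusted p of 0.301 for Dpf3, which does not pass, and 0.000278 when every gene with at least 1 count was kept.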

How the results depend on the processing

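The 2 calls in the pSHF, Dpf3 and Chd9, were the results most open to the processing. Both were called with RLE scaling. The count was 1 (Chd9) with every gene of at least 1 count, at Leiden resolution 1.2 and with doublets kept. It was 0 with cells thinned to 5000 UMIs, with DESeq2 and without the cells rich in cardiac muscle markers. The share of all genes called in each of these alternatives is not given here. Without the replicate block the count was 0 with all 4 libraries, and leaving out each library in such fits gave 0 to 0, which says nothing of any 1 library. The fit without the block changed no other count of members called between genotypes, all of which were 0 with the block as well. The adjusted p of Dpf3 ran from 0.0406 to 1.00 and that of Chd9 from 0.00765 to 1.00 over the alternatives, with fold changes of the same sign in all of them. Of 109 alternative counts of calls, 12 moved by over 1.5 times, 11 of them in the pSHF, and the last was the test between types, with 1 member, Dpf3, called when every gene of at least 1 count was kept (adjusted p = 0.000278). The cause of that change was not tested.

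Of 307 alternative fold changes of named members, 267 kept their direction and, where they had a p-value, their side of the threshold. Another 19 no longer passed and 21 reversed. Alternatives from 1 replicate alone or with a smaller added count had no p-value, so only their direction was compared. The members named over all cells were picked for the same sign in both replicates, so 1 replicate alone could not reverse them. All reversals came from fits without a block that left out 1 library, which set unequal kits against each other by construction. Their ranges on the log2 scale over all cells were -0.00015 to 0.20 for Smarca2, -0.41 to 0.13 for Smarcd3, -0.33 to 0.53 for Brd9, -0.71 to 0.53 for Phf10, -0.078 to 0.16 for Chd1, -0.48 to 0.035 for Chd5 and -0.025 to 0.16 for Chd9. For Phf10 they were -0.86 to 0.50 in epithelium, -0.88 to 0.45 in the pSHF, -0.71 to 0.14 in neurons and -0.72 to 0.52 in mesenchyme, for Dpf3 -0.49 to 0.042 in the aSHF with cardiac muscle, and for Smarcd3 -0.66 to 0.25 in mesenchyme. The median over the members stayed between -0.10 and 0.10. Thinning moved the ratio between types to 20.3 for Smarcd3, 5.33 for Smarca2, 3.89 for Smarcd1, 4.12 for Bcl7a and 2.56 for Arid1b, the lowest type of Dpf3 to endothelial progenitors and of Bcl7a to mature endothelium, the highest of Smarcd1 to otic vesicle and of Smarcc1 to BrM, and the Dpf3 share in cardiac muscle to 81.7%. With 2 libraries per genotype, small differences of well-counted members can go uncalled, as can larger ones of low-count members such as Dpf1, Chd5 and Actl6b, so 0 calls do not show equal levels.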
